A study of Homo sapiens with 2 samples.

Results

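Genes of mural cells and smooth muscle were followed in single cells of blood-generating heart-forming organoids (BG-HFOs). The set held 10 of the 36601 genes of the count tables, chosen by symbol from a fixed list: *PDGFRB*, *CSPG4*, *NOTCH3*, *RGS5*, *KCNJ8*, *ABCC9*, *ACTA2*, *TAGLN*, *MYH11* and *CNN1*. The list was chosen with earlier results of these data known. All 10 genes were present in both libraries. BG-HFOs were grown from aggregates of the human embryonic stem cell line hES3 NKX2.5-eGFP, which carries a green fluorescent reporter at the cardiac *NKX2-5* locus, and were differentiated in Matrigel by biphasic WNT modulation with added haemato-endothelial cytokines and growth factors. The data came from 2 single organoids taken on day 14 under the same protocol, 32.7 and 33.10, with 1 droplet library each. No organoid without the cytokines and no second line was measured here, and both organoids share their donor genotype.

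Mural cells are the cells that wrap blood vessels. Pericytes sit on capillaries and smooth muscle cells on larger vessels, and developing mural cells are recruited by endothelial PDGFB acting on the receptor PDGFRB and are matured by Notch signals through NOTCH3. Mature pericytes of the heart and brain are commonly recognised by RGS5, CSPG4 (also called NG2) and the potassium channel made of KCNJ8 and ABCC9. Smooth muscle cells are recognised by the contractile proteins ACTA2, TAGLN, CNN1 and MYH11, of which MYH11 is the most restricted to smooth muscle. The contractile genes are known targets of serum response factor and its co-activator myocardin (*MYOCD*), and *ACTA2*, *TAGLN* and *CNN1* are also used for a time by embryonic cardiomyocytes.

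Serum response factor binds the CArG box, an A/T-rich centre flanked by CC and GG. The promoter of *ACTA2* is shown because it was the only window of the set in which a form of this box was found, with a single inner base that departs from A or T in each copy. The stretch is chr10:88952810-88952919 on the minus strand (RefSeq, GRCh38.p14), given in the direction of transcription upstream of 1 of the 2 *ACTA2* starts searched, with the boxes in capitals.
*ACTA2* upstream: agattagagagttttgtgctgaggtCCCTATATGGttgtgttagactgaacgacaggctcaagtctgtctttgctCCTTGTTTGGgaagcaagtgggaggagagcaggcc
The boxes begin 121 and 71 bases before the start. RefSeq windows of 250 bases before to 50 after a start were matched for 8 of the 10 genes in 10 windows; *TAGLN* and *MYH11* were not matched. The exact box was in 0 of these 10 windows and in 454 of 35116 windows of all genes (1.29%). With 1 inner G or C allowed, a form chosen after the exact search, the box was in 1 of the 10 windows, that of *ACTA2*, and in 8.13% of all windows, and 0.686% of all windows held at least 2. The form is the same on both strands. These matches describe letters, not binding.

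Positions are those of GENCODE v44 on GRCh38. *PDGFRB* is at chr5:150113839-150155872, *CSPG4* at chr15:75674322-75712848, *RGS5* at chr1:163111121-163321791, *ACTA2* at chr10:88935074-88991339 and *MYH11* at chr16:15703135-15857028, all on the minus strand. *TAGLN* is at chr11:117199370-117207464 on the plus strand. *KCNJ8* (chr12:21764955-21775600) and *ABCC9* (chr12:21797389-21942543), the subunits of a single channel, are neighbours on the minus strand, and chromosome 19 holds both *NOTCH3* (chr19:15159038-15200995, minus strand) and *CNN1* (chr19:11538767-11550323, plus strand). Transcripts were counted by unique molecular identifiers (UMIs) over whole genes, introns included.

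The deposited tables held 16866 barcodes with 191152562 UMIs for organoid 32.7 and 19948 barcodes with 233818881 UMIs for organoid 33.10, and 100 barcodes occurred in both. Cells with at least 2000 UMIs that passed the quality limits of the study numbered 14204 and 18021. They were put into classes by raw UMIs of gate genes that are not among the 10: at least 10 UMIs of *COL3A1*, at least 8 of *MYH6*, *TNNT2* and *MYL3* together for cardiomyocytes (CMs), at least 3 of *CDH5*, *TIE1* and *ECSCR* for endothelial cells (ECs), and similar sums for erythroid, megakaryocyte, myeloid and endoderm cells. Cells passing a single gate formed the classes, with 2127 and 1779 cells in the COL3A1 class, 1766 and 1900 in the CM class and 2770 and 2850 in the EC class (32.7 first, as in all pairs of values below). Cells passing no gate (16.5% and 19.7%) or more than 1 gate (21.7% and 24.3%, which include doublets) were in no class. Markers outside the gates followed the class names. The sum of 7 mesenchymal markers was 2747 and 2419 CPM (UMIs of a gene per 1000000 UMIs) in the COL3A1 class. It was 630 and 648 in the CM class, which was thus not free of mesenchymal transcripts, and 85.0 and 100.0 in the EC class. The sum of 6 CM markers was 11430 and 10045 in the CM class against 688 and 540.1 in the COL3A1 class. That of 5 EC markers was 1887 and 1900 in the EC class against 195 and 172 in the COL3A1 class. Skeletal muscle markers were near 0 in the COL3A1 class, with *MYOD1* and *MYF5* at 0 in both organoids.

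Levels are CPM of the class, each from the summed cells of 1 organoid. Shares of cells with a UMI were taken after every cell with at least 5000 UMIs was thinned to 5000, so that classes of different depth can be compared. Free RNA was not removed. The erythroid class, in which mural genes should be silent, was taken as a guide to low levels, and whether its UMIs are free RNA was not tested. Of thinned erythroid cells, 7.65% and 9.07% held a UMI of *RGS5*, 10.1% and 11.8% one of *ACTA2*, 2.67% and 3.52% one of *TAGLN* and 0.534% and 1.49% one of *PDGFRB*. The erythroid level was not a common floor: *KCNJ8* ranged from 1.61 to 2.63 CPM there, above the EC class at 0.393 to 0.523 CPM. Median depth before thinning was 13310 and 9059 UMIs in the erythroid class, 12283 and 12272 in the COL3A1 class, 6773 and 8762 in the CM class and 11197.5 and 9509 in the EC class. Levels are compared between classes for 1 gene at a time and not between genes, since 3′ annotation and intronic UMIs differ from gene to gene.

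**Figure D1:**
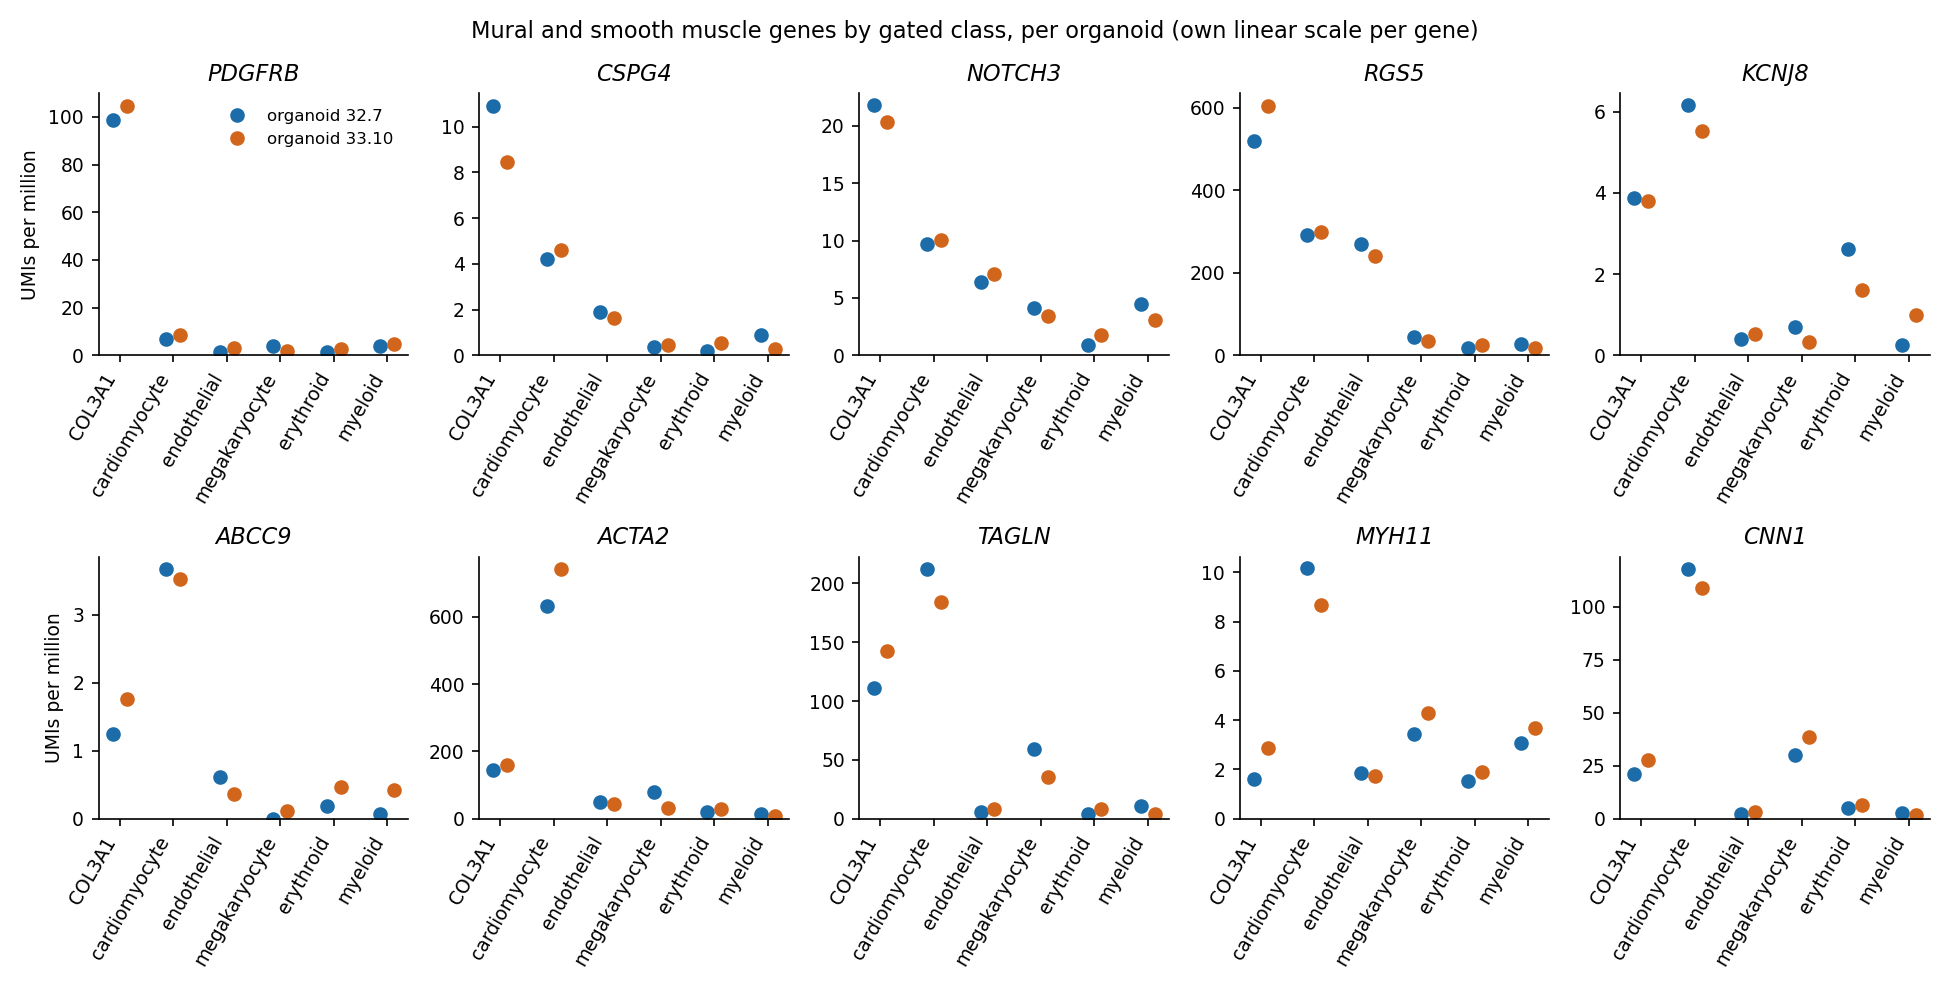
CPM of each of the 10 genes (vertical axis, own linear scale per gene) in 6 gated classes (horizontal axis), 1 point per organoid. *PDGFRB*, *CSPG4*, *NOTCH3* and *RGS5* are highest in the COL3A1 class, whereas *KCNJ8*, *ABCC9*, *ACTA2*, *TAGLN*, *MYH11* and *CNN1* are highest in the CM class in both organoids.

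By the class with their highest level, the 10 genes divided between the COL3A1 and CM classes. For *TAGLN* and *KCNJ8* the difference between these 2 classes was not called in the test given below. The receptors and surface proteins (*PDGFRB*, *CSPG4*, *NOTCH3*) and *RGS5* were highest in the COL3A1 class, and the channel subunits and all 4 contractile genes were highest in the CM class. Among the 6 classes plotted, the lowest organoid of the top class was above the highest organoid of the class that followed it for every gene. Outside the CM class *MYH11* ranged from 1.54 to 4.31 CPM over mesenchymal, endothelial and blood cells alike.

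*PDGFRB* had the largest excess in the COL3A1 class over both the CM and the EC class. It stood at 98.7 and 105 CPM in the COL3A1 class, at 6.65 and 8.35 CPM in the CM class and at 1.54 and 2.89 CPM in the EC class. Thinned to equal depth, 30.4% and 35.1% of the COL3A1 class held a *PDGFRB* UMI, against 3.74% and 3.96% of the CM class and 0.668% and 1.01% of the EC class. The blood classes ranged from 1.54 to 4.53 CPM, and the EC, erythroid and megakaryocyte classes overlapped each other. In CMs with no *COL3A1* UMI the level was 1.29 and 1.54 CPM, and in ECs with no *COL3A1* UMI it was 0.399 and 0.470 CPM. The level of *PDGFRB* in the CM and EC classes therefore lay mainly in cells that also held *COL3A1* UMIs; whether free RNA or joined cells contributed was not tested.

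*CSPG4*, a proteoglycan of the pericyte surface, measured 10.9 and 8.45 CPM in the COL3A1 class, 4.23 and 4.62 CPM in the CM class and 1.91 and 1.63 CPM in the EC class. In the erythroid, megakaryocyte and myeloid classes it lay between 0.181 and 0.900 CPM. *NOTCH3*, the Notch receptor of arterial smooth muscle, stood at 21.8 and 20.3 CPM in the COL3A1 class, 9.70 and 10.0 CPM in the CM class and 6.37 and 7.10 CPM in the EC class. Both genes kept the order COL3A1, CM, EC without overlap between organoids. Detection was sparse: 4.94% and 3.71% of thinned COL3A1 cells held a *CSPG4* UMI and 9.08% and 9.83% one of *NOTCH3*.

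*RGS5*, a regulator of G protein signalling that is widely used as a pericyte marker, was found well beyond the mesenchyme. It reached 520.5 and 606 CPM in the COL3A1 class, 292 and 300.0 CPM in the CM class and 269.8 and 241 CPM in the EC class. These levels compare with 16.7 to 44.8 CPM over the blood classes. A *RGS5* UMI was present in 68.6% and 82.6% of thinned COL3A1 cells, 58.1% and 62.8% of thinned CMs and 66.5% and 60.8% of thinned ECs. In ECs with no *COL3A1* UMI the level was nearly the same, 262 and 229 CPM, whereas in CMs with no *COL3A1* UMI it was 176 and 187 CPM. The share of ECs with *RGS5* lay far above the share of 7.65% and 9.07% in the erythroid class.

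The channel genes were scarce in every class. *KCNJ8*, the pore subunit, stood at 3.86 and 3.80 CPM in the COL3A1 class, 6.15 and 5.51 CPM in the CM class and 0.393 and 0.523 CPM in the EC class. *ABCC9*, its regulatory subunit, stood at 1.24 and 1.76 CPM in the COL3A1 class, 3.67 and 3.53 CPM in the CM class and 0.618 and 0.369 CPM in the EC class. No more than 3.21% of thinned cells of any of these classes held a UMI of either gene, and the most UMIs of *KCNJ8* in a single COL3A1 cell were 2 and 3. Both subunits together were found in 1 of 1982 thinned COL3A1 cells of organoid 32.7 and in 0 of 1669 of organoid 33.10, which allows a share of up to 0.18%. In thinned CMs the counts were 0 of 1123, which allows up to 0.267%, and 3 of 1491 (0.201%, exact 95% binomial interval 0.0415% to 0.587%). These counts belong to a single random draw, and another draw gave 1 of 1123. In that other draw independence gave 0.250 and 0.192 expected joint cells in the COL3A1 class, where 1 and 0 were found. In CMs 0.577 and 0.628 were expected, where 1 and 3 were found. Few joint cells were thus expected from the low detection of each gene, and whether the subunits meet more often was not tested. Limits of this kind concern cells with a UMI and cover counting error only.

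*ACTA2*, the smooth muscle actin, was highest in CMs. Its level was 632 and 741 CPM in the CM class, 145 and 160.3 CPM in the COL3A1 class and 49.7 and 44.95 CPM in the EC class. *ACTA2* UMIs were present in 64.3% and 71.4% of thinned CMs, 36.7% and 38.7% of thinned COL3A1 cells and 20.8% and 17.6% of thinned ECs. The EC share was above the erythroid share of 10.1% and 11.8% in both organoids. The EC level was not above all blood classes, since the megakaryocyte class ranged from 32.2 to 79.6 CPM. Of thinned megakaryocytes, 14.3 ± 5.76% held an *ACTA2* UMI (mean ± SD, n = 2). The tables also list 1 antisense gene of *ACTA2*, which the strand-specific 3′ counting keeps apart.

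*TAGLN*, an actin-binding protein of smooth muscle also called SM22, stood at 212 and 184 CPM in the CM class and 111 and 143 CPM in the COL3A1 class, against 5.78 and 8.09 CPM in the EC class. *CNN1*, calponin, stood at 118 and 109 CPM in the CM class, 21.1 and 27.8 CPM in the COL3A1 class and 2.39 and 3.23 CPM in the EC class. The EC class overlapped the erythroid class for *TAGLN* and lay below it for *CNN1*, where erythroid cells held 4.25 and 8.67 CPM of *TAGLN* and 4.89 and 6.41 CPM of *CNN1*. The megakaryocyte class was not at this low level. It held *CNN1* at 30.3 and 38.8 CPM, above the COL3A1 class in both organoids, and *TAGLN* at 59.6 and 35.4 CPM. A *CNN1* UMI was present in 10.46% and 12.7% of thinned megakaryocytes against 3.74% and 2.78% of thinned erythroid cells.

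*MYH11*, the smooth muscle myosin heavy chain, stood at 10.2 and 8.69 CPM in the CM class. In the COL3A1 class it was at 1.61 and 2.86 CPM, which overlapped the EC class (1.85 and 1.75 CPM) and was below the megakaryocyte class (3.44 and 4.31 CPM) and the myeloid class (3.09 and 3.68 CPM). Only 0.454% and 1.38% of thinned COL3A1 cells held a *MYH11* UMI, against 0.712% and 0.677% of erythroid and 1.29% and 2.83% of myeloid cells. The COL3A1 share lay below the myeloid share in both organoids. Against the erythroid share it went opposite ways, with 0.454% against 0.712% and 1.38% against 0.677%. No background level was established for *MYH11*, so whether the COL3A1 class expressed it was not tested. No COL3A1 cell held more than 3 *MYH11* UMIs, whereas single CMs held up to 11 in each organoid.

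Cells without any UMI of the other class's gate genes gave the same order for 3 of the 4 contractile genes. In CMs with no *COL3A1* UMI (920 and 1076 cells), *ACTA2* stood at 576 and 603 CPM, *CNN1* at 119 and 109 CPM and *MYH11* at 14.1 and 7.90 CPM. In COL3A1 cells with no UMI of *MYH6*, *TNNT2* or *MYL3* (917 and 645 cells), the same genes stood at 137 and 133 CPM, 19.9 and 22.8 CPM and 2.03 and 3.62 CPM. *TAGLN* overlapped, with 199 and 116 CPM in these CMs and 95.9 and 153 CPM in these COL3A1 cells. *KCNJ8* kept its order, at 5.16 and 5.54 CPM against 2.68 and 3.13 CPM.

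To ask which differences exceeded the spread between organoids, UMIs were summed per class and organoid and all 21490 genes above a minimum count were tested in 1 fit over 6 classes (edgeR, quasi-likelihood test, p-values adjusted after Benjamini and Hochberg, call at an adjusted p under 0.05). The p-values measure the spread between these 2 organoids. The classes compared come from the same organoids and were separated by expression, so many genes are called. The 10 genes were chosen with earlier results of these data known, so their counts beside the share of all genes are a description. Between the COL3A1 and CM classes 8 of the 10 genes were called, 4 higher and 4 lower in the COL3A1 class, against 36.8% of all genes tested (20.3% higher and 16.6% lower). *PDGFRB* was higher by 3.77 ± 0.24 on the log2 scale (SE, n = 2; edgeR adjusted p = 5.01e-07), *CSPG4* by 1.15 ± 0.29, *NOTCH3* by 1.11 ± 0.20 and *RGS5* by 0.94 ± 0.21. *CNN1* changed by -2.21 ± 0.18 (edgeR adjusted p = 3.44e-06), *ACTA2* by -2.16 ± 0.32, *MYH11* by -2.08 ± 0.26 and *ABCC9* by -1.25 ± 0.37. *KCNJ8* (-0.59, edgeR adjusted p = 0.172) and *TAGLN* (-0.64, edgeR adjusted p = 0.144) were not called, with 95% intervals of -1.29 to 0.11 and -1.34 to 0.066. The *ABCC9* call was lost with DESeq2 (adjusted p = 0.0608), and the calls of *ABCC9* (edgeR adjusted p = 0.0593) and *CSPG4* (0.0578) were lost with 10% of the all-cell profile removed from each class. The median difference of the 10 genes was -0.62, beside 0.058 over all genes tested.

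**Figure D2:**
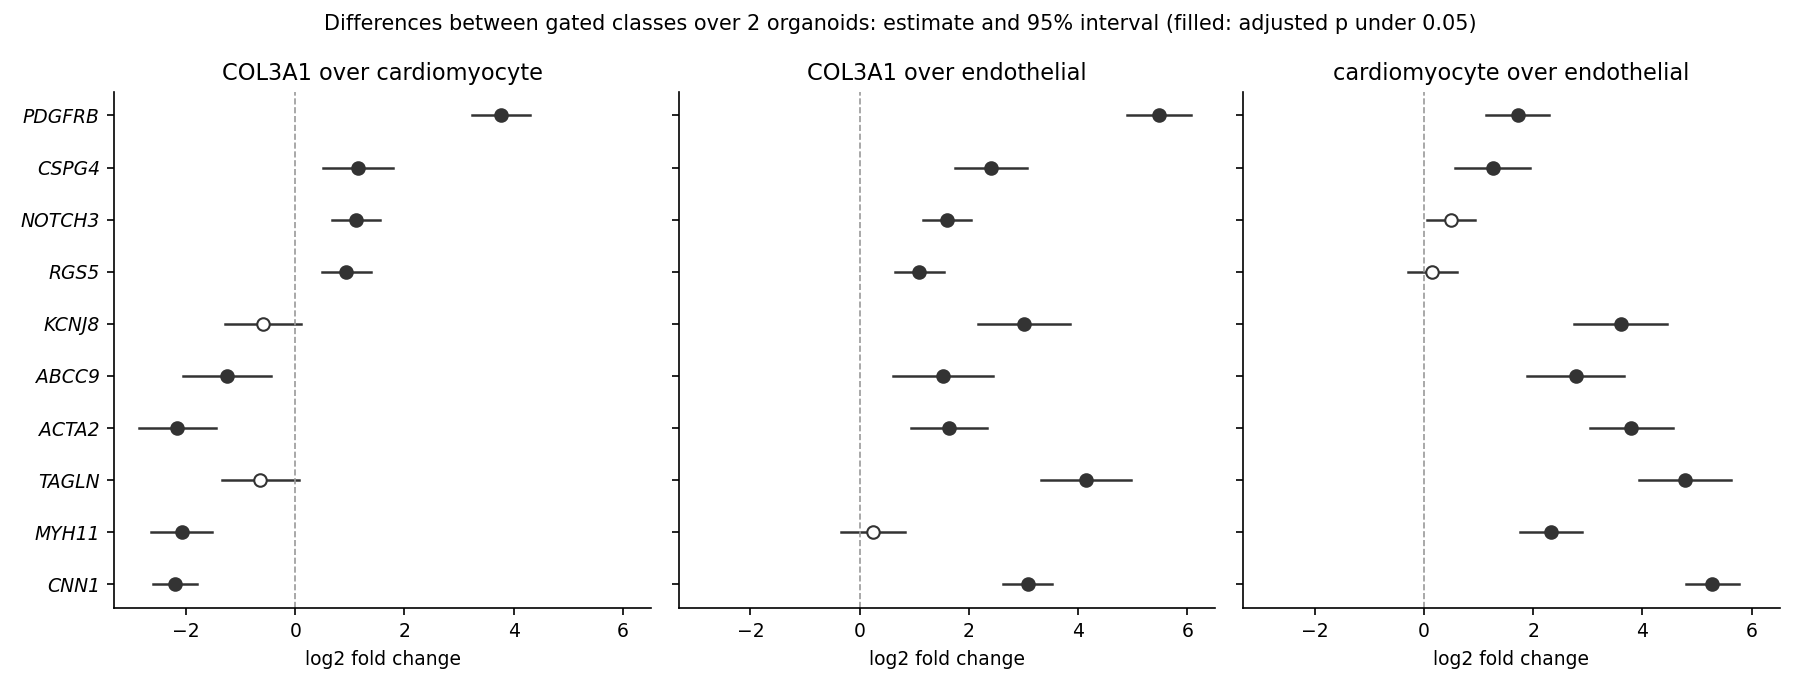
Log2 fold changes of the 10 genes (rows) in 3 comparisons of gated classes, with 95% intervals from the edgeR fit over 2 organoids per class. Filled points passed an adjusted p under 0.05: 8 genes between the COL3A1 and CM classes, 9 between the COL3A1 and EC classes and 8 between the CM and EC classes.

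Against the EC class, 9 of the 10 genes were higher in the COL3A1 class, where 26.8% of all genes tested were higher, 22.8% lower and 49.6% called in either direction. *PDGFRB* was higher by 5.49 ± 0.27 on the log2 scale (edgeR adjusted p = 2.96e-08), *TAGLN* by 4.15 ± 0.38, *CNN1* by 3.08 ± 0.21, *KCNJ8* by 3.01 ± 0.39 and *CSPG4* by 2.41 ± 0.30. Smaller differences were those of *ACTA2* (1.64 ± 0.32), *NOTCH3* (1.60 ± 0.20), *ABCC9* (1.53 ± 0.42) and *RGS5* (1.09 ± 0.21). The estimate for *ABCC9* was 0.96 in organoid 32.7 alone and 2.21 in organoid 33.10 alone. *MYH11* differed by 0.25 ± 0.27 (edgeR adjusted p = 0.474), with -0.24 in organoid 32.7 and 0.68 in organoid 33.10. The median difference of the 10 genes was 2.02, beside 0.035 over all genes tested.

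The CM class exceeded the EC class in 8 of the 10 genes, where 29.2% of all genes tested were higher, 29% lower and 58.2% called in either direction. The largest differences were in contractile genes, *CNN1* at 5.28 ± 0.22 (edgeR adjusted p = 6.52e-09), *TAGLN* at 4.79 ± 0.39 and *ACTA2* at 3.80 ± 0.35, followed by *KCNJ8* at 3.60 ± 0.39, *ABCC9* at 2.78 ± 0.41 and *MYH11* at 2.33 ± 0.26. *PDGFRB* (1.72 ± 0.26) and *CSPG4* (1.26 ± 0.31) were also called. The *PDGFRB* difference was 0.45 (edgeR adjusted p = 0.165) when the CM gate left out *TNNT2*, a gate chosen after seeing the data. *RGS5* differed by 0.15 ± 0.20 (edgeR adjusted p = 0.539) and *NOTCH3* by 0.50 ± 0.20 (edgeR adjusted p = 0.0551, or 0.0344 with the organoid as a replicate block), a call made under 6 of 10 alternatives. The median difference of the 10 genes was 2.55, beside 0.0046 over all genes. These 3 comparisons share class sums, so their counts are not independent of each other.

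Genes that work beside the 10 were taken from a list of 35, of which 34 could be tested; *FOXF2* fell below the minimum count. Between the COL3A1 and CM classes 11 were higher and 10 lower, beside 20.3% and 16.6% of all genes tested. The list's largest differences toward the COL3A1 class were *HEYL*, a Notch target (3.35 ± 0.41 on the log2 scale), the integrin gene *ITGA8* (2.96 ± 0.20) and *RGS4*, a relative of *RGS5* (2.24 ± 0.28). Toward the CM class they were *MYOCD* (-6.02 ± 0.23), *LMOD1*, an actin nucleator of muscle (-2.60 ± 0.23), and *PDGFD*, a ligand of PDGFRB (-2.42 ± 0.17). *MYOCD* stood at 7.02 and 8.33 CPM in the COL3A1 class and 460.4 and 546 CPM in the CM class, on the same side as *ACTA2*, *CNN1* and *MYH11*. Of the 14 contractile genes in the list 5 were higher and 4 lower in the COL3A1 class, with a median difference of 0.52 beside 0.058 over all genes.

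Against the EC class 16 of the 34 listed genes were higher and 9 lower in the COL3A1 class, beside 26.8% and 22.8% of all genes tested. *COX4I2*, a nuclear gene for a mitochondrial protein (5.67 ± 0.59), the matrix gene *VTN* (5.23 ± 0.43) and *RGS4* (4.83 ± 0.31) were those furthest toward the COL3A1 class. All 3 were among the 7 listed pericyte genes, of which 4 were higher, 1 lower (*MCAM*) and 2 not called. Furthest toward the EC class were *DLL4*, a Notch ligand (-7.11 ± 0.41), *PDGFB*, the recruiting ligand of PDGFRB (-6.24 ± 0.32), and *MCAM*, an adhesion molecule shared by endothelium and pericytes (-5.17 ± 0.28). *PDGFB* measured 123 and 116 CPM in the EC class and 1.75 and 1.49 CPM in the COL3A1 class, the reverse of its receptor *PDGFRB*. Between CMs and ECs 15 were higher and 13 lower in CMs, beside 29.2% and 29% of all genes tested. Of the 7 pericyte genes, 4 were also higher in CMs than in ECs, 2 were lower and 1 was not called. The listed genes were led by *MYOCD* (7.61 ± 0.25), *LMOD1* (6.38 ± 0.30) and *TPM1* (5.12 ± 0.21) toward CMs. Toward ECs they were led by *DLL4*, *MCAM* and *PDGFB* (-5.26, -4.53 and -4.52).

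Within the COL3A1 class, cells were divided by *LUM*, a fibroblast proteoglycan (at least 8 UMIs), and by the epicardial genes *TBX18*, *UPK3B*, *BNC1* and *LRRN4* (at least 2 together). The question was whether mural genes lie with the fibroblast-like or the epicardial cells, since the epicardium is a known source of coronary mural cells. There were 745 and 311 LUM cells, 364 and 432 epicardial cells and 760 and 923 remaining cells, and cells passing both (258 and 113) were kept apart. In CPM the clearest differences were those of *TAGLN* and *CNN1*. *TAGLN* stood at 62.7 and 105 CPM in LUM cells against 145 and 195 CPM in epicardial cells, and *CNN1* at 13.5 and 15.4 CPM against 29.6 and 37.8 CPM. The share of thinned cells with a UMI separated *CNN1*, at 7.30 ± 0.35% in LUM and 13.3 ± 3.46% in epicardial cells (mean ± SD, n = 2). For *TAGLN* the shares overlapped, at 22.0 ± 9.19% in LUM and 28.3 ± 0.12% in epicardial cells.

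Of the 10 genes, 2 were called between the LUM and epicardial cells, both lower in LUM cells, against 4.48% of all 17274 genes tested (2.1% higher and 2.38% lower). *CNN1* changed by -1.15 ± 0.15 (SE, n = 2; edgeR adjusted p = 0.0104) and *TAGLN* by -0.97 ± 0.21 (edgeR adjusted p = 0.0485). *CNN1* was called under all 10 alternatives, whereas *TAGLN* was called under 6 of them (adjusted p up to 0.0901). *RGS5* stood at 443 and 521 CPM in LUM and 621 and 638 CPM in epicardial cells, a difference of -0.31 ± 0.12 (edgeR adjusted p = 0.196, or 0.0202 with the organoid as a replicate block). *PDGFRB* went opposite ways in the 2 organoids, with 79.3 CPM in LUM and 123 CPM in epicardial cells of 32.7 and 105 and 90.8 CPM in those of 33.10. *ACTA2* was at 132 and 169 CPM in LUM, 134 and 135 CPM in epicardial and 186 and 193 CPM in the remaining cells, so that the remaining cells, with neither gate, held the highest *ACTA2* in both organoids. The median difference of the 10 genes was -0.23, beside 0.0020 over all genes.

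**Figure D3:**
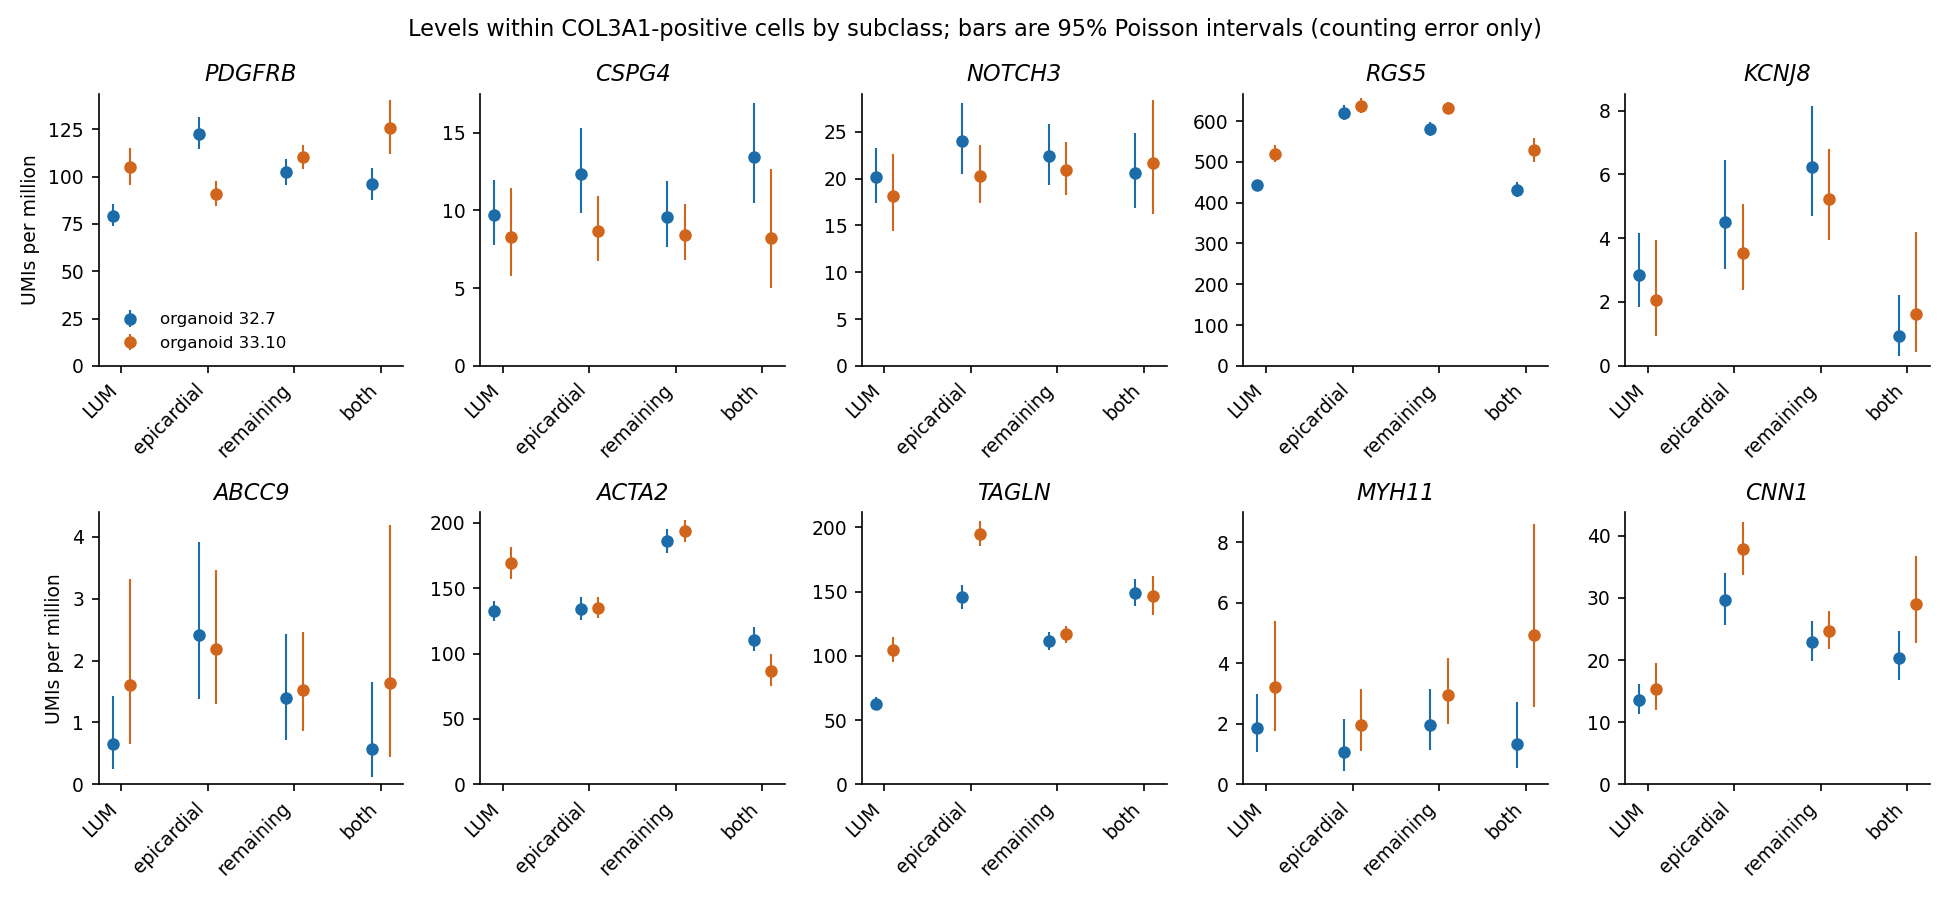
CPM of the 10 genes (vertical axis, own linear scale) in the LUM, epicardial and remaining cells of the COL3A1 class and in cells passing both gates, 1 point per organoid with 95% Poisson intervals for counting error. *TAGLN* and *CNN1* are lower in LUM than in epicardial cells in both organoids, whereas *PDGFRB* changes order between organoids.

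Among the companion genes tested here 3 were higher in LUM cells, *COX4I2* (3.42 ± 0.51), *RGS4* (1.39 ± 0.21) and *CALD1* (0.51 ± 0.11), and 3 were lower, *MYOCD* (-1.98 ± 0.25), *MCAM* (-1.67 ± 0.27) and the Notch ligand *JAG1* (-0.92 ± 0.17), of 32 tested. The remaining 26 were not called, where 4.48% of all genes tested were called in either direction. By list, 2 of 6 pericyte genes tested were higher in LUM cells and 1, *MCAM*, was lower, and of the 14 contractile genes *CALD1* alone was called.

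Cell division was the other axis examined. Cells of the COL3A1 class with at least 3 UMIs of *TOP2A* and *MKI67* (226 and 297 cells) were compared with cells that had none (1694 and 1316 cells). None of the 10 genes was called by edgeR, against 8.71% of 17635 genes (6.4% higher and 2.31% lower), and 0 were called by DESeq2; at an unadjusted p under 0.05 edgeR gave 2, *ACTA2* and *MYH11*. *ACTA2* stood at 117 and 121 CPM in cycling and 149 and 179 CPM in non-cycling cells, a difference of -0.44 ± 0.11 (edgeR adjusted p = 0.0667, or 0.000397 with the organoid as a replicate block). The 6 CM markers, at 392 and 301 CPM in cycling against 743 and 640.4 CPM in non-cycling cells, and the 7 mesenchymal markers, at 2159 and 1915 against 2896 and 2638 CPM, moved the same way, and their part in the *ACTA2* difference was not tested. *MYH11* stood at 3.04 and 4.14 CPM in cycling and 1.39 and 2.30 CPM in non-cycling cells, a difference of 1.00 ± 0.37 (edgeR adjusted p = 0.153, or 0.0448 with the block) on 15 and 27 UMIs in cycling and 30 and 38 in non-cycling cells. *PDGFRB* (-0.027), *RGS5* (0.058) and *TAGLN* (0.043) differed by less than 0.1 on the log2 scale, with standard errors of 0.11, 0.12 and 0.19. The median of the 10 genes was 0.0079, beside -0.023 over all genes, and of 32 companion genes 2 were called, *NDUFA4L2* (-1.39 ± 0.22) and *RGS4* (-0.79 ± 0.17), both lower in cycling cells.

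A large group of cells carried mesenchymal and cardiac transcripts at once. Cells passing the COL3A1 and CM gates and no other numbered 635 and 666. After their values were seen, they were divided by *MYH6* and *MYL3*, which gave 350 and 385 cells with at most 2 UMIs of these genes, whose CM gate rested mainly on *TNNT2*, and 226 and 216 cells with at least 8. As the split was chosen from values, what follows is a description with no test. The first of these groups held *TNNT2* at 1323 and 1227 CPM, against 76.4 and 104 CPM in the COL3A1 class, and the mesenchymal factor *TCF21* at 204 and 194 CPM, above *TCF21* in the COL3A1 class (96.6 and 121 CPM) and in the CM class (38.0 and 54.2 CPM). *TCF21* is 1 of the 7 mesenchymal markers, whose sum went the other way. That sum was 2497 and 2023 CPM in this group, below the COL3A1 class at 2747 and 2419 CPM. The 6 CM markers outside the gates summed to 1769 and 1587 CPM in this group. That was above the COL3A1 class at 688 and 540.1 CPM and below the CM class at 11430 and 10045 CPM. *MYH6* stood at 7.88 and 7.06 CPM, where the COL3A1 class had 7.93 and 6.57 CPM and the CM class 2157 and 1676 CPM. A low *MYH6* and a raised *TNNT2* are both part of how the group was chosen, so neither is a result. The median depth of these cells, 14845.5 and 16045 UMIs, exceeded that of the COL3A1 class (12283 and 12272) and the CM class (6773 and 8762), and the share of joined cells among them was not tested.

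These cells held the highest *RGS5* of the groups described here, 759 and 813 CPM, above the COL3A1 class at 520.5 and 606 CPM and the CM class at 292 and 300.0 CPM. *TAGLN* was also above both classes, at 264 and 232 CPM. *ACTA2* lay between the classes at 470.3 and 422 CPM, and so did *CNN1* at 65.6 and 48.0 CPM. *PDGFRB* was at 49.97 and 59.3 CPM, below the COL3A1 class and above the CM class. *MYH11* remained low at 1.01 and 2.96 CPM, and *KCNJ8* reached 5.87 and 7.20 CPM. *MYOCD* stood at 96.2 and 83.1 CPM, above the COL3A1 class (7.02 and 8.33 CPM) and below the CM class (460.4 and 546 CPM). In both organoids these cells thus had higher *RGS5* and *TAGLN* than either class, *ACTA2* and *MYOCD* between the classes, and low *MYH11*. Their *TNNT2* and low *MYH6* were set by the gates, and *TCF21* and *MYOCD* were named after their values were seen.

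**Figure D4:**
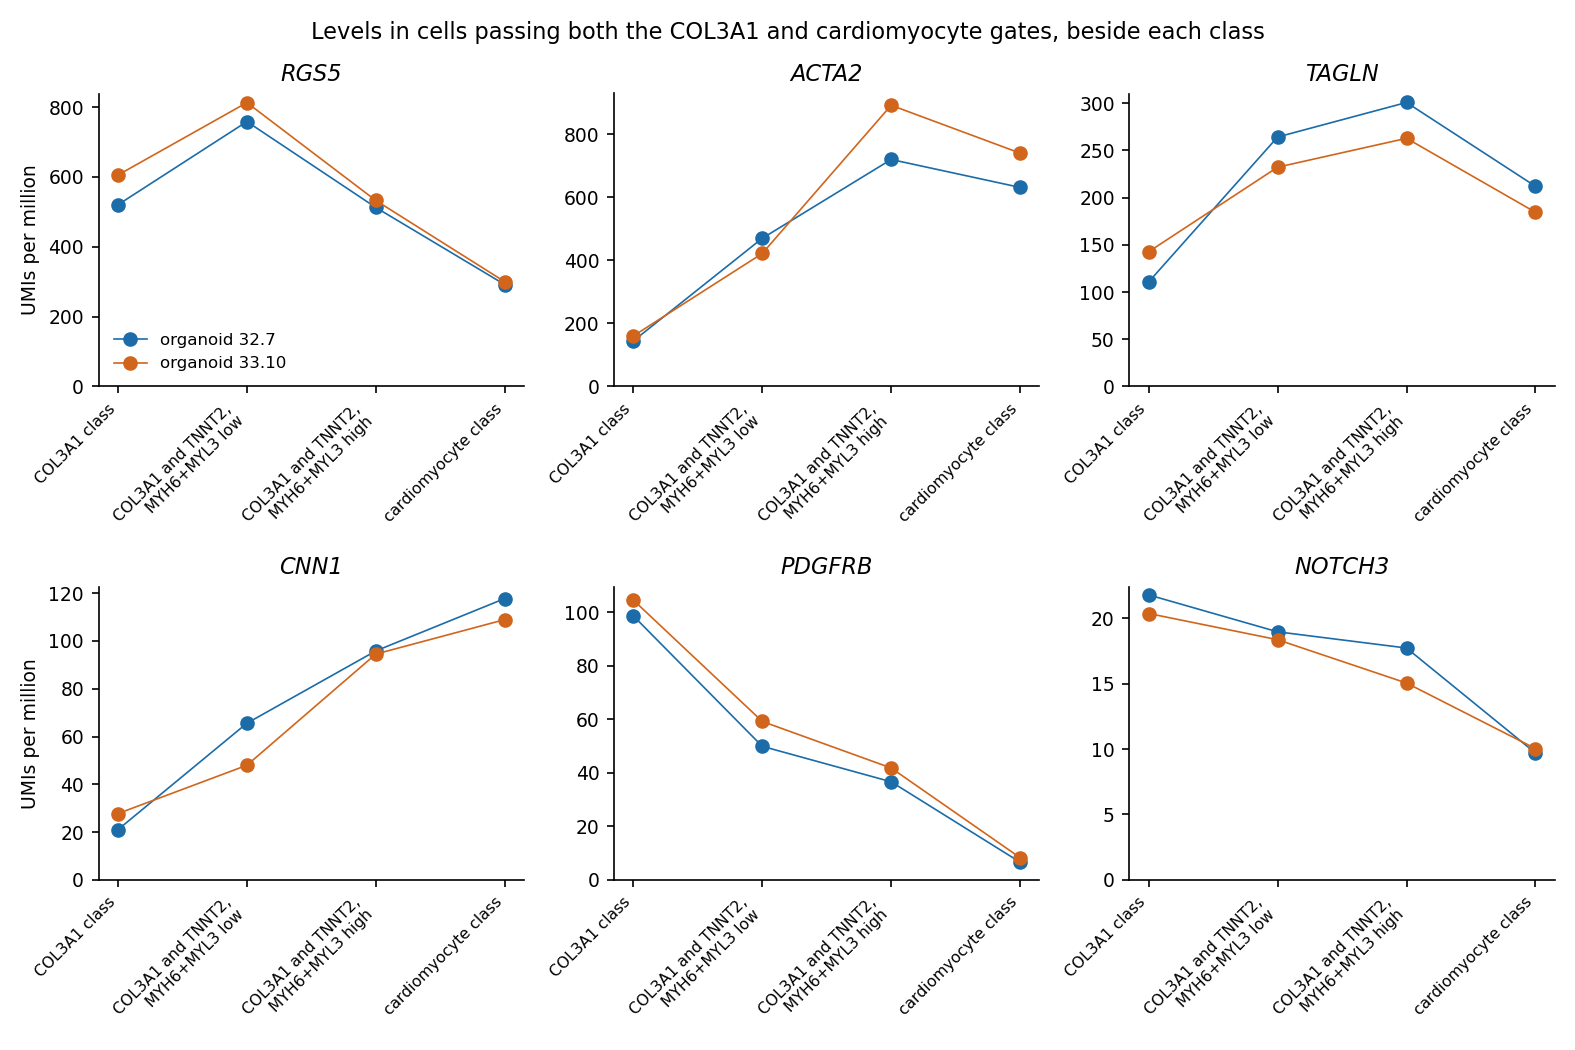
CPM of 6 genes (vertical axis, linear from 0) in the COL3A1 class, in cells passing the COL3A1 and CM gates with at most 2 UMIs of *MYH6* and *MYL3* or with at least 8, and in the CM class; lines join values of 1 organoid. *RGS5* peaks at 759 and 813 in the group with low *MYH6* and *MYL3*, while *PDGFRB* falls and *CNN1* rises from left to right in both organoids.

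Cells passing both gates with at least 8 UMIs of *MYH6* and *MYL3* held *ACTA2* at 721 and 893 CPM and *TAGLN* at 301 and 263 CPM, both above the COL3A1 and the CM class of the same organoid, and *RGS5* at 513 and 533 CPM. *PDGFRB* was at 36.7 and 41.9 CPM. Their median depth of 16827 and 21166 UMIs likewise exceeded that of the COL3A1 and CM classes, and the share of joined cells was not tested here either.

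Whether the genes marked the same cells was examined by co-detection, the log2 odds ratio that a thinned cell with a UMI of one gene also held one of the other (0.5 added to each count). It describes cells of 2 organoids that share library and depth, and no test was made. In the COL3A1 class the median over the 45 pairs was 0.14 in each organoid. This median has no fixed value under independence, because the added 0.5 makes sparse pairs positive, as with *ABCC9* and *MYH11* at 2.34 and 2.16 on 0 joint cells. Pairs were counted in another random draw of the thinned UMIs than the shares above. Of the 27 pairs with at least 5 cells expected under independence in both organoids, 11 were above 0 and 5 below 0 in both. *ACTA2*, *TAGLN* and *CNN1* were found together more often than expected in both organoids. *ACTA2* with *TAGLN* had 0.89 and 1.10 (223 and 238 cells, where 171 and 177 were expected), *TAGLN* with *CNN1* had 1.47 and 0.82, and *ACTA2* with *CNN1* had 0.35 and 0.77.

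*RGS5* had higher odds ratios with *TAGLN* and *ACTA2* than with *PDGFRB*, *CSPG4* and *NOTCH3*. Its values were 0.74 and 0.71 with *TAGLN* and 0.72 and 0.56 with *ACTA2*, against 0.084 and 0.15 with *PDGFRB*, -0.072 and -0.058 with *CSPG4* and -0.49 and -0.52 with *NOTCH3*. Joint cells were nonetheless more numerous with *PDGFRB* (436 and 494) than with *TAGLN* (351 and 385). The gap to *PDGFRB* was smaller in other settings. Means without thinning were 0.56 with *PDGFRB*, 0.65 with *ACTA2* and 0.96 with *TAGLN*, and at 3000 UMIs 0.21, 0.34 and 0.32. The value with *NOTCH3* turned with the processing, to 0.34 and 0.58 as the lowest and highest organoid without thinning and 0.19 and 0.45 with the stricter exclusion of cells that approach another gate, and it averaged -0.14 at 3000 UMIs and -0.028 with the CM gate without *TNNT2*. *PDGFRB* had 0.93 and 0.41 with *CSPG4*, but 0.39 and -0.015 with *NOTCH3*. It had -0.025 and -0.0048 with *ACTA2* and -0.43 and -0.18 with *CNN1*. In these thinned cells *PDGFRB* and *ACTA2* were therefore found together about as often as their separate frequencies give. They met in 232 and 239 cells, where 234 and 239 were expected. Both pairs depended on the processing. Without thinning the lowest and highest organoid had 0.35 and 0.41 with *ACTA2* and 0.37 and 0.43 with *CNN1*. At 3000 UMIs they had -0.085 and 0.42 with *ACTA2* and -0.11 and -0.041 with *CNN1*. With the CM gate without *TNNT2* they had -0.38 and -0.21 with *ACTA2*.

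In the CM class 5 of the 6 contractile pairs were above 0 in both organoids, *ACTA2* with *TAGLN* at 1.53 and 1.36, *ACTA2* with *CNN1* at 0.65 and 0.84, *TAGLN* with *CNN1* at 0.86 and 0.60, *TAGLN* with *MYH11* at 0.90 and 1.31 and *MYH11* with *CNN1* at 0.75 and 0.84. The other pair, *ACTA2* with *MYH11*, had -0.050 and 0.015. *RGS5* had 2.40 and 1.19 with *ABCC9*, on 16 and 19 cells, 1.04 and 0.48 with *ACTA2* and 0.84 and 0.72 with *TAGLN*. *PDGFRB* had -0.73 and -0.74 with *ACTA2*. Of 30 pairs with at least 5 expected cells, 14 were above 0 and 5 below 0 in both organoids, and the median over all 45 pairs was 0.37 and 0.25.

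**Figure D5:**
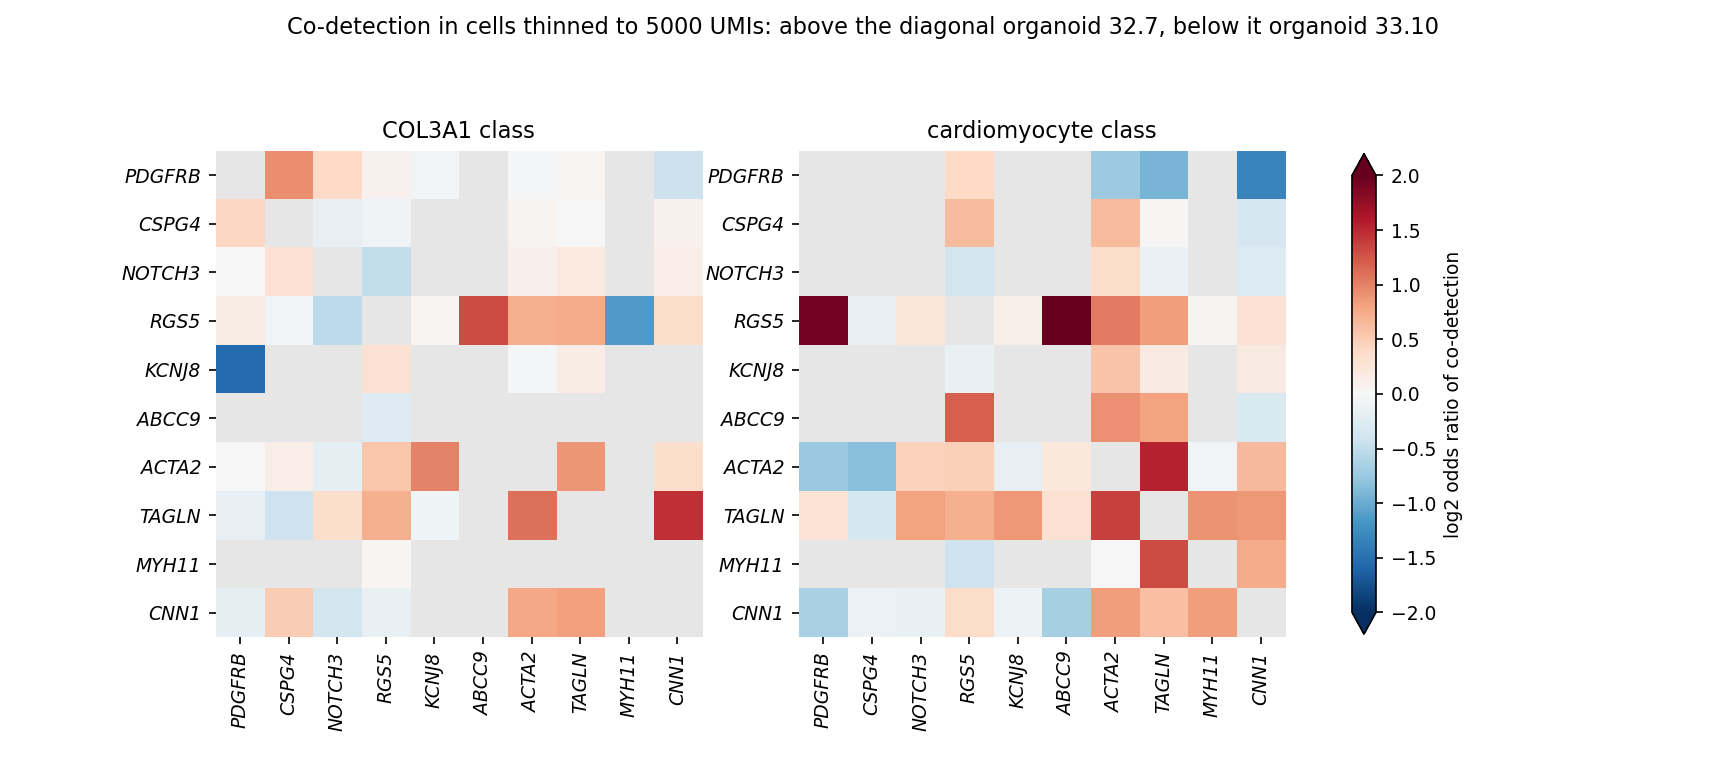
Log2 odds ratios of co-detection for pairs of the 10 genes in thinned cells of the COL3A1 class (left) and the CM class (right), with organoid 32.7 above and organoid 33.10 below the diagonal; grey marks pairs with fewer than 5 cells expected in either organoid. Red blocks among *ACTA2*, *TAGLN* and *CNN1* appear in both classes and organoids. *RGS5* with *NOTCH3* is blue in the COL3A1 class, a sign that turned without thinning and with the stricter exclusion.

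A thinned COL3A1 cell most often held 1 or 2 of the 10 genes (31.2% and 24.9% held 1, 32.6% and 35.7% held 2), 9.74% and 4.79% held none and 0.858% and 1.98% held 5 or more. *PDGFRB* and *RGS5* were found together in 20.7% and 29.2% of the COL3A1 class and in 0.417% and 0.633% of the EC class. With *KCNJ8* or *ABCC9* added, the combination was found in 6 of 1982 (0.303%, exact 95% binomial interval 0.111% to 0.658%) and 17 of 1669 COL3A1 cells (1.02%, 0.594% to 1.63%). In the draw made for pairs, *PDGFRB* and *RGS5* met in 436 and 494 COL3A1 cells, where 431 and 488 were expected under independence. Expected counts were not worked out for the combination with *KCNJ8* or *ABCC9*. Whether those genes meet more often than their frequencies give was not tested.

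The combination of the contractile genes *ACTA2*, *TAGLN*, *CNN1* and *MYH11* was found in 0 of 1982 and 0 of 1669 thinned COL3A1 cells, which allows shares of up to 0.151% and 0.18%. A *MYH11* UMI was present in a mean of only 0.916% of these cells, which caps the share with all 4. The count expected under independence was not worked out. In the separate draw made for the parts of the class, 1 of the 833 remaining cells of organoid 33.10 held all 4. In the CM class the combination was found in 7 of 1123 and 10 of 1491 cells (0.623% and 0.671%). Without *MYH11*, the remaining 3 genes were together in 1.77% and 2.22% of COL3A1 cells, in 15.5% and 12.4% of CMs and in 11.3% and 9.66% of the cells that passed both gates with low *MYH6* and *MYL3*. The last of these shares was above that of the COL3A1 class in both organoids, and it belongs to a group chosen after its values were seen.

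Genes whose class pattern was most like that of a member were taken by Pearson's r of log2(CPM + 1) over the 12 class sums of both organoids, among 13225 genes reaching 10 CPM. Since the 12 points share organoids and a handful of classes, r is high for many genes and is given as a description. *PDGFRB* was most like *HGF* (0.988), *CACNG4* and *CA12*, and *CSPG4* most like *COPZ2* (0.986), *CDON* and *LINC01697*. *RGS5* was most like *FRMD6* (0.996) and *AC090578.1*, and *NOTCH3* most like *TCF25* (0.988), *C4orf48* and *RNF7*. The contractile genes each had other neighbours: *AC132803.1* (0.986), *LINC01828* and *ESRRG* for *ACTA2*, *DACT1* (0.981), *SEMA5A* and *PLXNA4* for *TAGLN*, *FBXO32* (0.981), *LGI4* and *AC106795.2* for *CNN1* and *USP2* (0.971) and *AIFM1* for *MYH11*. *KCNJ8* and *ABCC9* did not reach the minimum level.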

How the data were processed

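Single-cell RNA sequencing with the 10x Genomics 3′ v3.1 chemistry was performed on 2 BG-HFOs, 1 library each. The authors aligned reads to GRCh38 and counted UMIs per gene with Cell Ranger 7.0.0, intronic reads included, and the deposited values are raw UMI counts per gene and barcode, before the removal of ambient RNA, depth equalisation and clustering described in the study. The study's limits on detected genes (50 to 11000) and on the mitochondrial share (below 30%) were applied, and a minimum of 2000 UMIs was added here. Cells passing more than 1 gate were left out of the classes and no doublet caller was run. Free RNA left in the counts raises low shares, 3′ counting favours genes with good 3′ annotation, and introns add UMIs to long genes.

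UMIs were summed per class and organoid and tested with edgeR 4.0.16 (TMM, filterByExpr, quasi-likelihood test, Benjamini-Hochberg over all genes tested, threshold 0.05), with DESeq2 1.42.0 as an alternative, in R 4.3.3. The endoderm class (113 and 14 cells) had too few cells for the fit. Classes of 1 organoid come from the same tissue, which is the source of the pairing: their deviations from the class means correlated at 0.264 to 0.314 for the lineage classes compared, 0.228 for the LUM and epicardial cells and 0.382 for cycling and non-cycling cells. Total depth was 191152562 and 233818881 UMIs, and intervals (95%, exact binomial or Poisson) and floors (3 UMIs or cells) cover counting error only. The fit was tested on simulated data with 100 genes changed per size. Of a log2 change of 1 it recovered 53 to 55, and of a log2 change of 2 it recovered 86 to 89. Unchanged genes made up 7.74% to 12.3% of calls, above the nominal 5%. Only these genes differed between the classes compared, and the simulated libraries were drawn independently. In the data 36.8% to 58.2% of genes were called between lineage classes, and classes of 1 organoid were correlated. The simulated rates therefore need not hold for the real comparisons.

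The members and the companion list were chosen with earlier results of these data known. Named were all 10 members, gate genes, up to 3 companion genes per direction and comparison with the largest called log2 fold change, and the 3 genes with the highest r per member, of which some are not reported here. Markers were named for the class checks, and *TCF21* and *MYOCD* were named in the group passing both gates after their values were seen.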

Additional observations from a re-analysis of the deposited data

How the results depend on the processing

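Calls between the COL3A1, CM and EC classes changed little: the count of called genes was 6 to 9 between COL3A1 and CM, 9 throughout between COL3A1 and EC, and 7 to 9 between CM and EC over 10 alternatives, of which the CM gate without *TNNT2* was chosen after seeing the data. Between LUM and epicardial cells the count of 2 became 1 with gate thresholds doubled, with thresholds halved, with 10% of the all-cell profile removed and with a stricter exclusion, at 0.5 of the other gates' thresholds,, and 3 with the replicate block. Between cycling and non-cycling cells the count of 0 became 1 without the filter on low counts, with 10% of the profile removed and with the CM gate without *TNNT2*, and 2 with the replicate block (organoid). Beyond the calls printed beside their results, the replicate block changed none; its counts were 8, 9, 9, 3 and 2 in the 5 comparisons. Over all genes, calls between LUM and epicardial cells rose from 774 to 2832 with the block, 2410 without the filter and 1208 with the other CM gate, and between cycling and non-cycling cells from 1536 to 5527 with the block and 3361 without the filter. The median co-detection in the COL3A1 class, 0.140 as a mean of both organoids (0.136 to 0.144 with 1 left out), was 0.186 at 3000 UMIs, 0.460 without thinning, 0.190 without cycling cells, 0.187 and 0.165 with thresholds doubled and halved, 0.215 with the stricter exclusion and 0.0726 with the CM gate without *TNNT2*. Some of these means cover unlike organoids. The medians of 32.7 and 33.10 were 0.330 and 0.0438 with thresholds doubled and 0.330 and 0.00094 with thresholds halved. With the CM gate without *TNNT2* they were 0.173 and -0.028, a change of sign in organoid 33.10. The log2 differences between groups of cells that changed sign were all uncalled. *RGS5* between CM and EC became -0.039 with thresholds halved, -0.071 with the stricter exclusion and -0.13 with the other CM gate. With that gate, *PDGFRB*, *CSPG4*, *NOTCH3* and *ACTA2* between LUM and epicardial cells became 0.12, 0.10, 0.013 and -0.43, and *MYH11* became -0.10 with thresholds halved. Between cycling and non-cycling cells *PDGFRB* became 0.043 with the stricter exclusion and 0.062 with the other gate, *TAGLN* -0.10 with thresholds doubled and -0.081 with the other gate, and *CNN1* -0.011 with it. The cause of these changes was not tested. With 1 organoid left out no residual degrees of freedom remained for a test. Values of single organoids are in the text for some of the differences that change sign or size between organoids, not for all. Depth limits *KCNJ8*, *ABCC9* and *MYH11*, which rest on 37 to 115 UMIs per organoid in the COL3A1 class.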

Other observations

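Few cells held much *MYH11*. Of 14204 cells in organoid 32.7, 496 held a *MYH11* UMI and 1 held at least 10. Of 18021 cells in organoid 33.10, 709 held a UMI and 5 held at least 10, which together carried 121 of the 957 *MYH11* UMIs of that organoid. The highest single cell, in organoid 33.10, held 65 *MYH11* UMIs among 26321, with 26 of *TAGLN*, 13 of *RGS5*, 3 of *ACTA2* and 3 of *CNN1*, and also 194 of *TNNT2*, 49 of *MYH6* and 18 of *COL3A1*. The next held 24 *MYH11* UMIs with 97 of *ACTA2* and 91 of *TAGLN*, again with 103 of *TNNT2* and 52 of *MYH6*. All 6 cells with at least 10 *MYH11* UMIs held between 103 and 253 *TNNT2* UMIs and at least 19 of *MYH6*, and none held a UMI of *CSPG4*, *NOTCH3* or *CDH5*. These cells were chosen by their *MYH11* value and are described only.

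Cells that passed no gate (2349 and 3546) held markers of several classes. Their mesenchymal markers summed to 1319 and 1175 CPM, their erythroid markers to 1541 and 2463 CPM and their endothelial markers to 446 and 442 CPM. They held *PDGFRB* at 42.0 and 38.9 CPM, *RGS5* at 333 and 349 CPM, *ACTA2* at 126 and 104 CPM and *CNN1* at 24.0 and 22.6 CPM, at a median of 3840 and 4289.5 UMIs per cell. The endoderm class was small, with 113 and 14 cells, and held 142 and 106 *RGS5* UMIs and no *ABCC9* UMI.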
